A study of Mus musculus with 8 samples.

Results

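The interferon-inducible GTPases described here are 10 mouse genes chosen by name, out of 23282 rows in the deposited tables of liver RNA. They are 5 guanylate-binding protein genes (*Gbp2*, *Gbp3*, *Gbp5*, *Gbp6* and *Gbp7*) and 5 immunity-related GTPase genes (*Irgm1*, *Irgm2*, *Igtp*, *Iigp1* and *Tgtp1*), and each stood on 1 row. The liver came from C57BL/6 mice that the labels describe as male and 4 weeks old. The control group was given saline, and the endotoxemic group was given 25 mg/kg lipopolysaccharide (LPS), the outer membrane component of Gram-negative bacteria. The labels of the LGK974 group name only the agent LGK974, which inhibits Porcupine, the enzyme that attaches the lipid needed for Wnt secretion. By the study's methods, these mice received 60 mg/kg LGK974 together with 25 mg/kg LPS. In most experiments of the study the inhibitor preceded LPS by 2 h, and liver was taken 6 h after LPS. None of these groups received LGK974 without LPS.

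Guanylate-binding proteins (GBPs) and immunity-related GTPases (IRGs) are large GTP-hydrolysing proteins that cells make in response to interferons. After interferon-γ binds its receptor, the kinases Jak1 and Jak2 activate transcription factors that bind gamma-activated sites (GAS) and induce *Irf1*, whose product binds interferon-stimulated response elements (ISRE). GBPs collect on the vacuoles of intracellular pathogens and on the LPS of cytosolic bacteria, where they favour activation of the inflammasome caspases. Among the IRGs, Irgm1, Irgm2 and Igtp (also called Irgm3) are regulators that keep the effector GTPases inactive on the membranes of the cell itself. Iigp1 (Irga6) and Tgtp1 (Irgb6) are effectors that load onto pathogen vacuoles and help to break them.

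Short stretches of promoter are shown because members on rows in order moved together, and because interferon signalling is known to act through the letters marked in them. The RefSeq promoter table of GRCm38.p6 holds 250 bases before to 50 bases after each transcription start and had entries for 8 of the 10 members, *Gbp6* and *Iigp1* being without one. Capitals mark the ISRE letters GAAANNGAAA, searched on both strands, and the GAS letters TTCNNNGAA, which read the same on both strands. Each stretch is written 5′ to 3′ on the strand of its gene, and where matches overlap the capitals form 1 longer run.
Gbp2, chr3:142620592-142620625, plus strand: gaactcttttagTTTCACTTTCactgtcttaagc
Gbp3, chr3:142559987-142560026, plus strand: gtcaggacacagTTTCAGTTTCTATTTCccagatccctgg
Gbp5, chr3:142496757-142496902, plus strand: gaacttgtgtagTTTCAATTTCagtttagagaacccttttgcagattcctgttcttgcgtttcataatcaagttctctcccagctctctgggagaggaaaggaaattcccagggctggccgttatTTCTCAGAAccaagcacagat
Gbp7, chr3:142530218-142530304, plus strand: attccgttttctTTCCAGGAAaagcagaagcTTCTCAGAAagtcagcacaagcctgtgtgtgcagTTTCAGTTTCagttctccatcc
Irgm1, chr11:48871428-48871457, minus strand: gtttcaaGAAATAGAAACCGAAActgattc
Irgm2, chr11:58214890-58214934, plus strand: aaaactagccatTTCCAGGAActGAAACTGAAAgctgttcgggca
Igtp, chr11:58199499-58199543, plus strand: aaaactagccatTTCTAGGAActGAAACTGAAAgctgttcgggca
Tgtp1, chr11:48992302-48992346, minus strand: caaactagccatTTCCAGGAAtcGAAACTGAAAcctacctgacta

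All 8 genes had the ISRE letters, against 3.99% of the 27025 genes in the promoter table. *Gbp3* had 2 windows in that table, and by window 8 of 9 had the ISRE letters. The matches began between 24 and 165 bases upstream of the RefSeq start, and *Gbp3* and *Irgm1* each had 2 that overlapped. The GAS letters were present in 5 of the 8 genes (*Gbp5*, *Gbp7*, *Irgm2*, *Igtp* and *Tgtp1*), against 9.55% of all genes. *Gbp5* had a further GAS match 245 bases upstream, outside the stretch shown. In *Irgm2*, *Igtp* and *Tgtp1* the GAS match ended 2 bases before the ISRE match, so that these IRG genes share the same arrangement. The stretches of *Igtp* and *Irgm2*, which are neighbours on chromosome 11, were identical at 44 of 45 bases, and those of *Igtp* and *Tgtp1* at 33 of 45. A GENCODE exon of a longer transcript covers the *Irgm1* stretch and 24 bases of the *Gbp2* stretch. A match of letters is a description of the sequence, and binding was not measured.

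**Figure D1:**
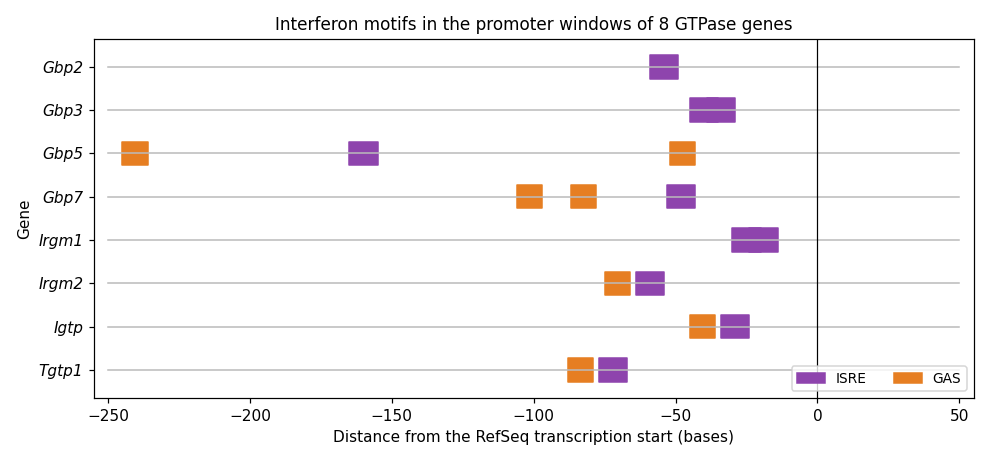
Positions of ISRE and GAS letters in the promoter windows of 8 GTPase genes. The horizontal axis is the distance in bases from the RefSeq transcription start at 0, each grey line is 1 gene, purple boxes are ISRE matches and orange boxes are GAS matches. *Gbp3* had 2 windows, which share 1 line. All matches lie upstream of the start, and in *Irgm2*, *Igtp* and *Tgtp1* the GAS match stands directly before the ISRE match.

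The RNA was sequenced by a 3′-end method (QuantSeq), so counts do not scale with transcript length. The deposited tables held 2 control, 4 endotoxemic and 2 LGK974 libraries. Endotoxemic libraries 3 and 4 differed from libraries 1 and 2 on 0 rows, while libraries 1 and 2 of a group differed on 14698 to 15444 rows. Each identical pair was counted once, which left 6 libraries, 2 per group, with 9142116 to 15222439 counts. The smallest signal taken as shown, 3 counts, corresponded to 0.197 to 0.328 CPM (the count scaled by the library total) and covers counting error only. The labels do not say whether the libraries of a group are separate mice, so the p-values measure only the spread between these libraries. Levels of genes are given as CPM with the totals scaled by edgeR's TMM factors. The libraries did not all match the label of male mice. *Xist*, an RNA made from the silenced X chromosome of females, was present in control liver (1444 and 3115 counts) and endotoxemic liver (1171 and 1884 counts) and had 3 and 7 counts with LGK974. *Ddx3y*, on the Y chromosome, had 0 counts in each control and endotoxemic library and 1755 and 1392 in the LGK974 libraries. The sex of the mice and treatment with LGK974 therefore cannot be told apart in any comparison with the LGK974 group. The hepatocyte list of 6 markers, headed by albumin, summed to between 33500 and 117000 CPM in every library, and albumin was present in each.

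The rows follow the order of genes along the chromosomes, which allowed each symbol to be checked against its neighbours. Of 23146 rows with a RefSeq position, 581 carried the symbol of a gene that lies elsewhere. For 443 of them the row at the gene's own place was found. For 9 of the 10 GTPases the neighbouring rows were genomic neighbours. *Gbp7*, *Gbp3* and *Gbp2* stood in the GBP cluster of chromosome 3, *Gbp6* stood between *Gbp10* and *Gbp11* on chromosome 5, and *Igtp* and *Irgm2* stood on adjacent rows. *Gbp5* was the exception. Its gene lies at 142496934 to 142522344 of chromosome 3, but its row stood between *Tmppe* and *Trim71*, which lie on chromosome 9. The row at its own place, directly before *Gbp7*, carried the symbol *Kit*. Results for the other 9 genes use the symbols as deposited. For *Gbp5* the values are given as deposited and as reassigned, with the control counts left on the symbol and the endotoxemic and LGK974 counts taken from the row at its genomic place. This choice came from the table as a whole. Across the 443 rows, Spearman's rho of control and endotoxemic counts was 0.063 as deposited and 0.808 after reassignment, where genes are not independent replicates.

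All 9 GTPases on rows in order were higher in endotoxemic than in control liver, by 6.14-fold for *Irgm2* to 144-fold for *Gbp2*. Across all 12701 genes that passed the filter on low counts, 20.4% were called higher. The median log2 fold change of the 9 genes was 3.60, and that of all genes tested was 0.01. Each of the 9 was called at an adjusted p below 0.05 by edgeR's quasi-likelihood test, which was used throughout, with Benjamini-Hochberg adjustment over all 12701 genes. With the LGK974 libraries left out of the fit, all 9 were also called, where 3205 of 12113 genes were called higher. In every case both endotoxemic libraries lay above both control libraries, and the share of all genes with this pattern was not counted. The summed level of the 9 genes was 823 and 778 CPM in control liver and 8900 and 8460 CPM in endotoxemic liver. That is a rise from 0.0803% and 0.0782% of all counts to 0.893% and 0.866%. In liver as a whole, more cells of a type that expresses a gene and more RNA per cell cannot be told apart.

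**Figure D2:**
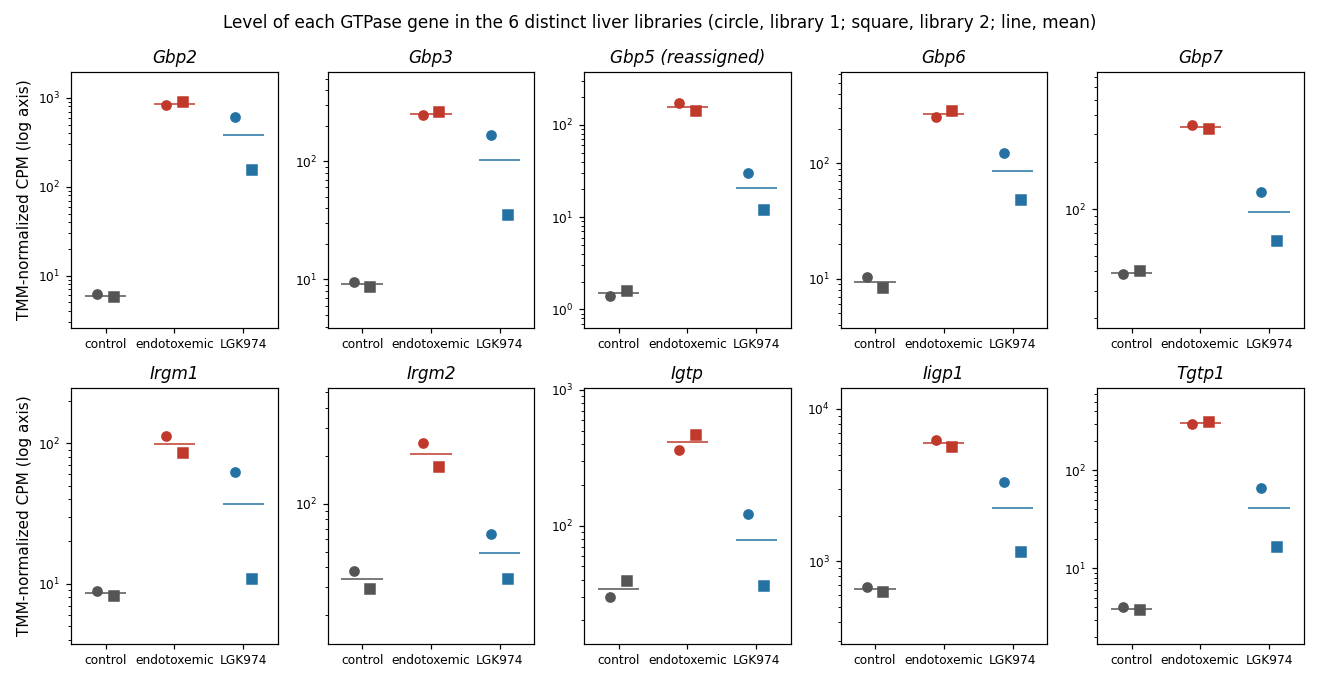
Level of each GTPase gene in the 6 distinct libraries, as TMM-normalized CPM on a log axis with a separate scale in each panel. Circles are library 1, squares are library 2 and lines are group means (n = 2), and *Gbp5* is shown as reassigned. Both endotoxemic libraries are above both control libraries in every panel, and the circle of the LGK974 group lies above the square in every panel. These positions describe the plotted genes only.

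Among the GBPs, *Gbp2* had the largest rise. Its levels were 6.22 and 5.75 CPM in control liver, 829 and 890 CPM in endotoxemic liver, and 611 and 156 CPM in LGK974-treated liver. The log2 fold change in the endotoxemic group was 7.17 (SE 0.64, edgeR adjusted p = 3.53e-05). A gene near the bottom of the members' range in control liver thus came second to *Iigp1* in endotoxemic liver among the 10 members. *Gbp3*, its neighbour in the cluster, had 9.56 and 8.63 CPM in control, 246 and 259 CPM in endotoxemic and 168 and 34.9 CPM in LGK974-treated liver, and rose 27.7-fold (log2 4.79, SE 0.64, edgeR adjusted p = 0.00036). *Gbp7*, which in mice has been tied to oxidative killing of bacteria, began higher, at 38.5 and 40.1 CPM. It reached 342 and 326 CPM in endotoxemic liver, an 8.5-fold rise (log2 3.09, SE 0.32, edgeR adjusted p = 8.49e-05), and had 129 and 62.5 CPM in LGK974-treated liver. Differences in fold among these 3 genes were not tested.

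*Gbp6*, in the second GBP cluster on chromosome 5 (105270702 to 105293698 in GENCODE, minus strand), had 10.3 and 8.3 CPM in control liver and 252 and 282 CPM in endotoxemic liver. It rose 28.8-fold (log2 4.85, SE 0.44, edgeR adjusted p = 3.7e-05) and had 123 and 47.8 CPM in LGK974-treated liver. Its 3′ end is nearly a copy of that of *Gbp10*, with 77.8% of the 50-base words in the last 500 bases found in both. How reads common to both were assigned is not given in the sources used here, so its value may include *Gbp10*. With the rows of both genes summed, the log2 fold change was 4.77.

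*Gbp5* helps to assemble the NLRP3 inflammasome, and its values depended on the row taken. As deposited, it had 15 and 24 counts in control liver, 3 and 5 in endotoxemic liver and 0 in each LGK974 library. The log2 fold change in the endotoxemic group was −1.76 (SE 0.82, edgeR adjusted p = 0.119), opposite in direction to that of every other member. The row labelled *Kit* at its genomic place had 20 and 50 counts in control, 1560 and 1326 in endotoxemic and 395 and 177 in LGK974-treated liver. Reassigned, *Gbp5* had 1.4 and 1.58 CPM in control and 171 and 142 CPM in endotoxemic liver, a 104-fold rise (log2 6.69, SE 0.48, edgeR adjusted p = 1.62e-05). With the whole *Kit* row in its place, control counts included, the log2 fold change was 5.89. The direction for *Gbp5* therefore turns on a correction of the table and is less certain than for the other members.

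The regulatory IRGs had smaller fitted folds than *Gbp2*, *Gbp3* and *Gbp6*, but *Irgm1* and *Igtp* had larger ones than *Gbp7*, and these differences between genes were not tested. *Irgm1*, a regulator linked to autophagy, had 8.91 and 8.23 CPM in control, 112 and 84.8 CPM in endotoxemic and 62.6 and 10.8 CPM in LGK974-treated liver. Its rise in the endotoxemic group was 11.5-fold (log2 3.52, SE 0.66, edgeR adjusted p = 0.00254). *Irgm2* had 38.1 and 29.2 CPM in control liver and 241 and 171 CPM in endotoxemic liver, and its 6.14-fold rise (log2 2.62, SE 0.33, edgeR adjusted p = 0.000281) was the smallest of the members on rows in order. The LGK974 libraries had 64.5 and 33.6 CPM of *Irgm2*, and the lower of these lay between the control libraries. *Igtp* rose 12.1-fold, from 29.6 and 39 CPM to 364 and 469 CPM (log2 3.60, SE 0.50, edgeR adjusted p = 0.000465), and had 122 and 36 CPM in LGK974-treated liver. GENCODE models of *Igtp* and *Irgm2* overlap over 7974 bases of chromosome 11 on the same strand, but none of the 50-base words at either 3′ end was found in another gene.

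Of the effector IRGs, *Iigp1* (chromosome 18, 60376027 to 60392634 in GENCODE) was the most abundant member in every library. It had 678 and 635 CPM in control, 6220 and 5660 CPM in endotoxemic and 3310 and 1160 CPM in LGK974-treated liver, and it made up 66.9% to 82.4% of the summed level of the 9 genes. The rise was 9.05-fold (log2 3.18, SE 0.43, edgeR adjusted p = 0.000375). *Tgtp1* had the lowest level of the 9 genes in control liver, with 3.99 and 3.73 CPM. It reached 295 and 314 CPM in endotoxemic liver, a 78.9-fold rise (log2 6.30, SE 0.62, edgeR adjusted p = 5.83e-05), and had 65.6 and 16.4 CPM in LGK974-treated liver. The effectors thus included both the most and the least abundant of these genes in control liver. Of the 50-base words at the 3′ end of *Tgtp1*, 75.9% occur in *Tgtp2*, the next gene along, so that reads of these genes cannot be fully separated. The log2 fold change was 6.17 with both rows summed.

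The order of levels differed between groups. In control liver *Iigp1* was followed by *Gbp7*, *Igtp* and *Irgm2*, whose neighbours in this order had overlapping libraries, then by *Gbp6*, *Gbp3* and *Irgm1*, which also overlapped in this order, and by *Gbp2*, *Tgtp1* and reassigned *Gbp5*. In the endotoxemic libraries the order was *Iigp1*, *Gbp2*, *Igtp*, *Gbp7*, *Tgtp1*, *Gbp6*, *Gbp3*, *Irgm2*, reassigned *Gbp5* and *Irgm1*. In it, *Gbp6* and *Gbp3*, and *Irgm2* and *Gbp5*, were the neighbours whose libraries overlapped. In the LGK974 group the libraries of each gene overlapped those of the next, apart from *Iigp1* at the top.

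In LGK974-treated liver the mean levels of the 9 GTPases on rows in order lay between those of the other groups. For all 9 genes on rows in order both LGK974 libraries were below both endotoxemic libraries, a pattern met by 26% of all genes tested. By edgeR's test 5 of the 9 were lower than in the endotoxemic group, 4 did not pass and 0 were higher, where 2.82% of all genes were called lower. This comparison and the rise described above share the endotoxemic libraries. The median log2 fold change of the 9 was −1.65, and that of all genes tested was 0.03. The 5 that fell were *Tgtp1*, *Igtp*, *Irgm2*, *Gbp7* and *Gbp6*. *Tgtp1* fell by 2.89 on the log2 scale (SE 0.51, edgeR adjusted p = 0.0169) and *Igtp* by 2.40 (SE 0.47, edgeR adjusted p = 0.023). *Irgm2* fell by 2.07 (SE 0.33, edgeR adjusted p = 0.0111), *Gbp7* by 1.80 (SE 0.31, edgeR adjusted p = 0.0149) and *Gbp6* by 1.65 (SE 0.38, edgeR adjusted p = 0.039). The members that fell thus included 2 regulators, 1 effector and 2 GBPs. Reassigned *Gbp5* fell by 2.90 on the same scale (SE 0.38, edgeR adjusted p = 0.00503).

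Another 4 genes were not called. The log2 change of *Iigp1* was −1.41 (95% interval −2.32 to −0.51, edgeR adjusted p = 0.074), and *Irgm1* had −1.43 (−2.78 to −0.07, edgeR adjusted p = 0.199). *Gbp3* had −1.32 (−2.55 to −0.09, edgeR adjusted p = 0.191), and *Gbp2* had −1.16 (−2.26 to −0.07, edgeR adjusted p = 0.196). These intervals are not adjusted for the number of genes, and each reaches to a fall of 4-fold or more. The count of 5 depended on single libraries. When either of the endotoxemic libraries was left out, edgeR called 0 of the 9, and 6 had an unadjusted p below 0.05. Over all genes the lower calls then went from 358 of 12701 to 58 of 13337 without endotoxemic library 1 and 26 of 13359 without library 2. With either control library left out 3 of the 9 were called, where all genes had 173 of 13296 and 168 of 13016 lower calls. With LGK974 library 1 left out 9 of the 9 were called, where all genes had 1067 of 13080, and with library 2 left out 6 were called, where all genes had 623 of 13057. The number called among the members and the number called among all genes moved the same way. All values of the 9 kept their direction, with log2 changes from −4.21 (*Tgtp1*) to −2.36 (*Iigp1*) without LGK974 library 1 and from −2.22 (*Tgtp1*) to −0.49 (*Gbp2*) without library 2.

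**Figure D3:**
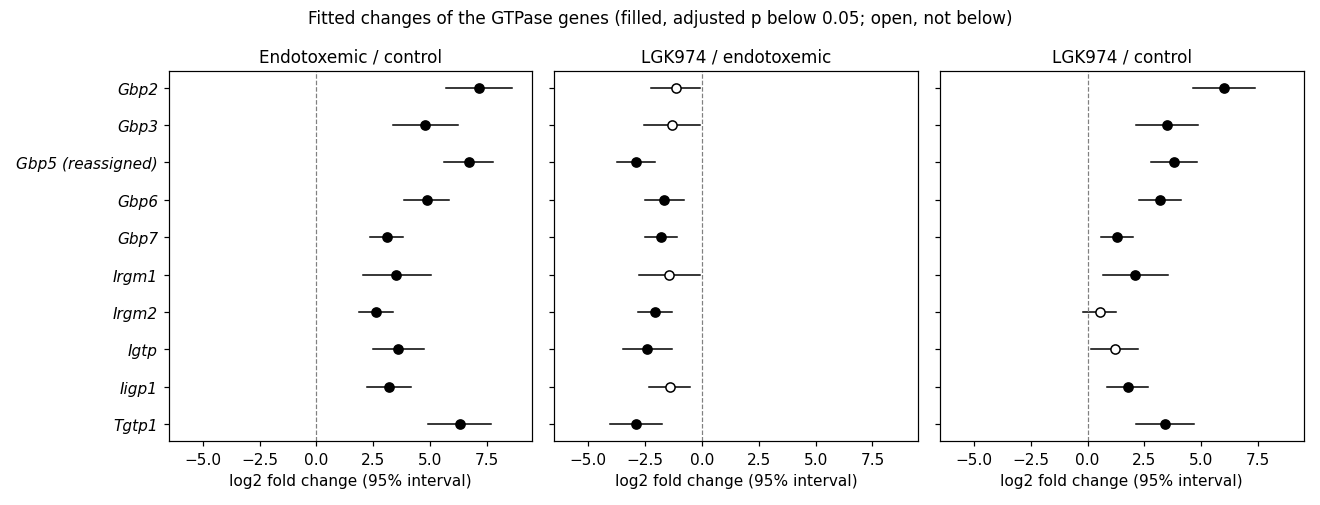
Fitted log2 fold changes of the 10 genes in 3 comparisons, with 95% intervals that are not adjusted for the number of genes (2 libraries per group). Filled points passed an adjusted p of 0.05 and open points did not, and *Gbp5* is shown as reassigned. All 10 points are above 0 for endotoxemic against control liver and below 0 for LGK974-treated against endotoxemic liver.

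The LGK974 libraries differed from each other more for these genes than for most. Library 1 had the higher level for 9 of 9 genes on rows in order, by 0.94 (*Irgm2*) to 2.51 (*Irgm1*) on the log2 scale, with a median of 1.75. Between the endotoxemic libraries the median difference was −0.07, and between the control libraries 0.11. Over all genes tested the median absolute difference between the LGK974 libraries was 0.42, and 8.2% of genes were higher in library 1 by at least 0.94. Relative to the endotoxemic mean, library 1 held 21.5% of *Tgtp1* to 71.1% of *Gbp2*, and library 2 held 5.4% of *Tgtp1* to 19.4% of *Iigp1*. Summed over the 9 genes the levels were 4650 and 1550 CPM. The genes that did not pass, *Gbp2*, *Gbp3*, *Irgm1* and *Iigp1*, were those for which library 1 held 55.6% or more of the endotoxemic mean, against 46.1% or less for the others. Some cell type markers split the same way and others the opposite way. Library 1 was higher for 6 of 6 hepatocyte markers, but 1 of these, *Cps1* with 360 and 107 CPM, differed by at least 0.94 on the log2 scale, and *Alb* had 23900 and 23600 CPM. It was also higher for 5 of 8 Kupffer cell and macrophage markers, of which *Cd5l* (12.4 and 3.53 CPM, as reassigned), *Timd4* (5.81 and 1.96 CPM) and *Vsig4* (3.7 and 1.62 CPM) differed by that much. *Marco* (60.8 and 97.2 CPM), *Csf1r* (18.1 and 22.7 CPM, as reassigned) and *Adgre1* (6.04 and 11.3 CPM) were lower in library 1. The whole Kupffer cell and macrophage list summed to 127 and 156 CPM. Library 1 was higher for 4 of 5 T cell markers, none above 0.528 CPM, and for 1 of 7 natural killer cell markers. It was higher for 2 of 6 sinusoidal endothelial markers, with *Kdr* at 2.94 and 15.6 CPM going the other way. For neutrophil markers it was higher for 2 of 6, with summed levels of 819 and 922 CPM. The part of these cells in the split was not tested. Whether these libraries differ in dose, time or injection is not stated in the labels.

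**Figure D4:**
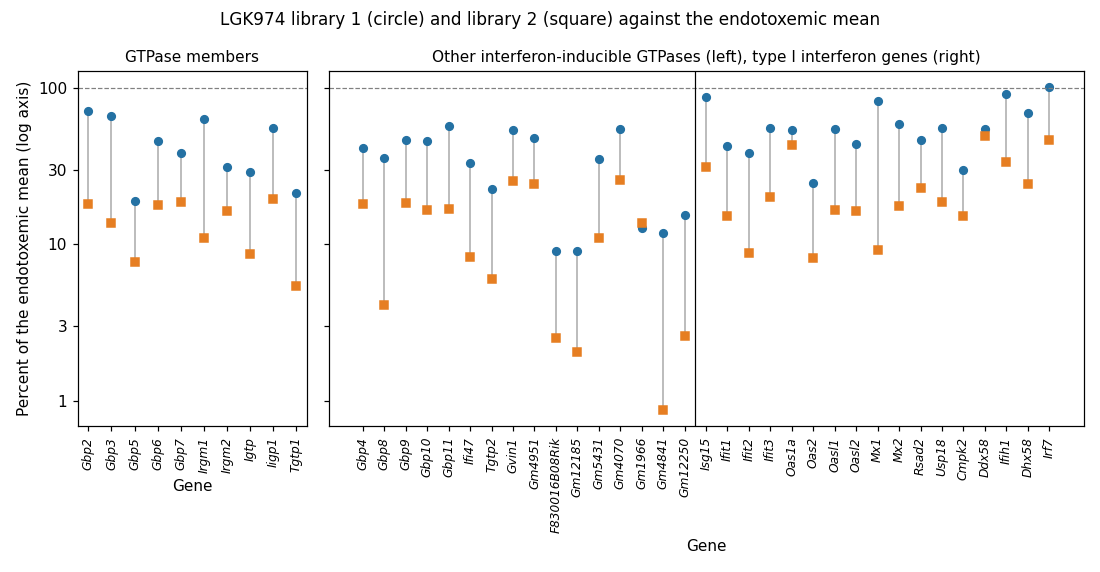
Level in each LGK974 library as a percentage of the mean of the endotoxemic libraries, on a log axis, for the 10 GTPases (*Gbp5* as reassigned), 16 other interferon-inducible GTPases and 17 type I interferon genes. Circles are LGK974 library 1, squares are LGK974 library 2 and the dashed line marks 100%. Library 1 is above library 2 for all 10 members, for 15 of the 16 other GTPases and for all 17 type I interferon genes.

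Compared with the control group, the LGK974 group still had more RNA of most of these GTPases. Of the 9 genes on rows in order, 7 were called higher and 2 did not pass, where 16.4% of all genes were called higher. The median log2 fold change was 2.10, against 0.02 for all genes tested. *Gbp2* stayed 64.1-fold above control (log2 6.00, SE 0.61, edgeR adjusted p = 1e-04), *Gbp3* 11.1-fold (edgeR adjusted p = 0.00228) and *Tgtp1* 10.6-fold (edgeR adjusted p = 0.00167). *Gbp6* was 9.2-fold, *Irgm1* 4.28-fold, *Iigp1* 3.4-fold and *Gbp7* 2.44-fold above control, with edgeR adjusted p from 0.000389 to 0.0314. *Irgm2* and *Igtp*, both regulators, were the genes that did not pass. The log2 fold change of *Irgm2* was 0.55 (95% interval −0.18 to 1.27, edgeR adjusted p = 0.22) and that of *Igtp* was 1.20 (0.15 to 2.24, edgeR adjusted p = 0.0746). Library 1 was above both control libraries for 9 of the 9 genes, and library 2 for 7, with *Irgm2* and *Igtp* of library 2 between the control libraries. The share of all genes with these patterns was not counted. The sizes depended on which LGK974 library was used. Without library 1 the log2 fold changes were 4.71 for *Gbp2*, 1.95 for *Gbp3*, 2.10 for *Tgtp1*, 2.37 for *Gbp6*, 0.82 for *Iigp1* and 0.67 for *Gbp7*, and without library 2 they were 6.68, 4.21, 4.09, 3.74, 2.34 and 1.72. The call for *Irgm1* was lost without library 1, where its log2 fold change was 0.34 (edgeR adjusted p = 0.328), against 2.87 without library 2. *Irgm2* and *Igtp* had 0.01 and 0.07 without library 1, and passed without library 2 with 0.95 and 1.83 (edgeR adjusted p = 0.00551 and 1.55e-05). When either of the control libraries was left out, 4 of the 9 genes were called higher, and over all genes the higher calls went from 2081 of 12701 to 1041 of 13296 and 1155 of 13016.

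A list of other interferon-inducible GTPases held 20 genes with a row, of which 16 passed the filter. In the endotoxemic group all 16 rose and 0 fell, with a median log2 fold change of 4.16, where 20.4% of all genes were called higher. In the LGK974 group 11 of the 16 were lower than in the endotoxemic group and 0 were higher, with a median of −2.18. Of all genes 2.82% were called lower in that comparison. *Gm4841*, an IRG gene, rose most, from 16 and 29 counts in control to 3664 and 3982 in endotoxemic liver, and had 646 and 53 counts in LGK974-treated liver. Its log2 fold changes were 7.90 for endotoxemic against control liver (SE 1.09, edgeR adjusted p = 0.000441) and −3.98 for LGK974-treated against endotoxemic liver (SE 0.87, edgeR adjusted p = 0.0333). *Gm12250* (Irgb10), an IRG that acts on cytosolic bacteria, had log2 fold changes of 6.85 and −3.47 in the same comparisons, and *Gbp4* had 6.26 and −1.75. *F830016B08Rik* had the lowest fitted ratio of LGK974-treated to control level among the 16 tested genes, with 14.1 and 17.8 CPM in control, 135 and 157 CPM in endotoxemic and 13.3 and 3.65 CPM in LGK974-treated liver. Its difference between LGK974 and control did not pass (log2 −0.93, edgeR adjusted p = 0.154).

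Upstream of these genes, *Ifng*, which encodes interferon-γ, was seen almost only in endotoxemic liver. It had 0 counts in each control library, 93 and 127 in endotoxemic liver, and 2 and 0 in LGK974-treated liver. Taking 3 counts per control library as the floor, its level was at least 49.9-fold higher in endotoxemic than in control liver. The summed counts were 220 in endotoxemic and 2 in LGK974-treated liver, a ratio of 166 once divided by the summed effective library sizes, which with so few counts is known only roughly (exact 95% counting interval 45.5 to 1380), and edgeR gave an adjusted p of 0.00399 for this comparison. Unlike the GTPases, *Ifng* was thus near 0 in both LGK974 libraries. The list of interferon-γ induction and receptors had 13 genes with a row, of which 6 were tested, 2 of them on reassigned rows. Of the 6, 4 rose in the endotoxemic group, where 20.4% of all genes were called higher. *Ifng* alone was lower with LGK974, where 2.82% of all genes were called lower. *Ifng*, *Il12b* and *Il18rap* had at most 0.263 CPM in control liver and passed the filter through the endotoxemic libraries. Their higher calls were thus largely fixed by the filter, on which the *Ifng* counts above do not depend. For the receptor chain gene *Ifngr1* the log2 change was 0.45 (edgeR adjusted p = 0.122) and *Ifngr2* rose by 0.65 (edgeR adjusted p = 0.0424) in the endotoxemic group.

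Natural killer cells are known producers of interferon-γ. The list of 7 natural killer cell markers summed to 2.78 and 2.81 CPM in control, 7.64 and 9.59 CPM in endotoxemic and 2.94 and 2.64 CPM in LGK974-treated liver. Of its 7 genes 2 passed the filter, *Gzma* and *Gzmb*, and these made up most of the endotoxemic sums. *Gzma* was called higher in endotoxemic (3.93 and 5.97 CPM) than in control liver (1.67 and 1.7 CPM). *Gzmb* passed the filter only through the endotoxemic libraries (3.27 and 2.45 CPM), so its higher call was fixed by the filter. *Klrb1c* had 0.464 and 0.719 CPM in control and 0.436 and 1.17 CPM in endotoxemic liver, and *Prf1* had 0 counts in endotoxemic liver. *Ncr1*, *Klra8* and *Eomes* of this list had 0 counts in every library. T cell markers summed to at most 3.9 CPM in any library. The share of these cells in the GTPase levels was not tested.

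Genes of the Jak and Stat step and its transcription factors rose as a list in the endotoxemic group, with 9 of 9 tested genes higher, 2 of them on reassigned rows. In the LGK974 group 4 of the 9 were lower than in the endotoxemic group and 0 were higher. The shares of all genes called were 20.4% higher in the first comparison and 2.82% lower in the second. *Irf1* had 37.9 and 26 CPM in control, 399 and 213 CPM in endotoxemic and 66.2 and 56 CPM in LGK974-treated liver, with log2 fold changes of 3.26 and −2.33 (edgeR adjusted p = 7.62e-05 and 0.00668). For *Irf1* the LGK974 libraries lay closer to each other than for any of the 9 GTPases. *Irf8*, *Batf2* and *Nlrc5* were the other genes that fell, by 2.48, 2.56 and 1.81 on the log2 scale.

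Among 7 inhibitors of the pathway, 4 rose in the endotoxemic group and 2 were lower in LGK974-treated than in endotoxemic liver. The same calls were made for 20.4% and 2.82% of all genes. *Socs1*, which blocks Jak kinases, had 17 and 7 counts in control, 1538 and 1005 in endotoxemic and 626 and 364 in LGK974-treated liver. Its log2 fold changes were 7.16 (edgeR adjusted p = 1.77e-05) and −1.94 (edgeR adjusted p = 0.0284). *Cish* was the other that fell, by 1.67 (edgeR adjusted p = 0.0181). *Socs3* rose by 3.61 in the endotoxemic group, with a log2 change of −0.77 for LGK974-treated against endotoxemic liver (edgeR adjusted p = 0.141).

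Of 13 tested genes among other interferon-γ targets, 10 rose in the endotoxemic group and 0 fell, with a median log2 fold change of 2.75 and 3 of the 13 values from reassigned rows. In the LGK974 group 3 of the 13 were lower than in the endotoxemic group. Of all genes 20.4% were called higher in the first comparison and 2.82% lower in the second. *Tap1*, the peptide transporter of antigen presentation, had log2 fold changes of 3.67 and −1.68, and *Cxcl9*, a chemokine that draws T cells, had 7.79 and −1.78 as reassigned, since its symbol stood on a row out of order. *Cd74* and *H2-Aa*, of antigen presentation by class II molecules, had 0.43 and −0.24 in the endotoxemic group, neither of which passed. The target genes thus did not all move with the GTPases.

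Partners of the GTPases were called in both directions. IRGs and GBPs need the LC3 conjugation system to load onto vacuoles, and of 11 tested genes of this list 2 rose and 4 fell in the endotoxemic group, with a median log2 fold change of 0. Over all genes 20.4% were called higher and 23% lower in this comparison. *Gabarapl1* fell most, by 2.72 (SE 0.19, edgeR adjusted p = 1.01e-05), from 431 and 454 CPM to 62.8 and 71.1 CPM, and *Arhgdia* rose by 1.07. For LGK974-treated against endotoxemic liver the log2 changes of the 11 genes ran from −0.54 for *Atg3* to 0.83 for *Atg7*, and the lowest adjusted p by edgeR was that of *Atg7* (edgeR adjusted p = 0.0524). Of 9 inflammasome genes 6 rose, with 6 of the 9 values taken from reassigned rows. *Casp4*, encoding the caspase that binds LPS in the cytosol (caspase-11), had a log2 fold change of 5.22 as reassigned, and *Gsdmd*, whose product forms the pores of pyroptosis, had 2.05. *Il1b*, as reassigned, was the gene of this list that was lower in LGK974-treated than in endotoxemic liver (log2 −2.67, edgeR adjusted p = 0.00295). Of all genes 2.82% were called lower there.

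Type I interferon genes were compared because interferons α and β act through the same ISRE letters. All 17 genes of this list rose in the endotoxemic group, with a median log2 fold change of 3.19, and 6 were lower in LGK974-treated than in endotoxemic liver, with a median of −1.41. The same calls were made for 20.4% and 2.82% of all genes. The 9 GTPases had medians of 3.60 and −1.65. For *Isg15*, a ubiquitin-like protein, the levels were 42.8 and 39.3 CPM in control, 1810 and 1630 CPM in endotoxemic and 1500 and 538 CPM in LGK974-treated liver. Its log2 fold changes were 5.39 and −0.75, and the second did not pass (edgeR adjusted p = 0.284). LGK974 library 1 was above library 2 for 17 of 17 genes, as it was for 9 of 9 GTPases. The ISRE letters were present in 7 of 12 genes of this list with a promoter entry and the GAS letters in 2 of 12. No test of a difference between the lists was made.

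The genes most alike to the 9 GTPases were sought among all others tested, by Pearson's r over the 6 libraries with the mean of the standardized log2 CPM of the 9. They were *Ifit3* (r = 0.9992), *Amigo2* (0.9986), *Fam26f* (0.998), *Oasl2* (0.9978), *Tagap* (0.9977), *Ifi47* (0.9976), *Stx18* (0.9974) and *Tgtp2* (0.9972). Within the 9, r with their own mean ran from 0.9391 for *Gbp2* to 0.9989 for *Iigp1*. These values describe 6 libraries in 3 groups, and the same group differences and library totals enter all of them. *Fam26f* had log2 fold changes of 6.13 for endotoxemic against control liver and −2.69 for LGK974-treated against endotoxemic liver, and *Stx18* had 1.76 and −0.86.

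Markers of other cell types moved between the groups as well. Neutrophil markers summed to 9.14 and 7.42 CPM in control, 1170 and 1150 CPM in endotoxemic and 819 and 922 CPM in LGK974-treated liver. Of these, 6 of 6 tested genes were higher in the endotoxemic group, where 20.4% of all genes were, 2 markers being on reassigned rows. Kupffer cell and macrophage markers had summed levels of 282 and 263, 183 and 163, and 127 and 156 CPM in the same order. In the endotoxemic group, where 23% of all genes were called lower than in control, 4 of these 8 genes were lower and 1, *Marco*, was higher, with a log2 fold change of 3.70, and 2 of the 8 were on reassigned rows. Sinusoidal endothelial markers summed to 253 and 255, 409 and 406, and 440 and 560 CPM, but 3 of the 6 genes were lower in the endotoxemic group and 1 was higher by edgeR. The higher gene was *Lyve1*, at 49.5 and 35.7 CPM in control and 360 and 336 CPM in endotoxemic liver, while *Clec4g*, *Kdr* and *Oit3* fell by 3.49, 5.36 and 1.64 on the log2 scale. Between LGK974-treated and endotoxemic liver, *Clec4g* (log2 −2.19, edgeR adjusted p = 0.0163) and the Kupffer cell marker *Clec4f* (log2 −1.30, edgeR adjusted p = 0.0187) were lower and 0 genes of these 2 lists were higher. Hepatocyte markers summed to 117000 and 81800 CPM in control, 51300 and 33500 CPM in endotoxemic and 40300 and 37300 CPM in LGK974-treated liver. The part of these cells in the GTPase values was not tested.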

How the data were processed

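Liver RNA of 3 groups of mice was sequenced with the Lexogen QuantSeq kit. The authors deposited counts of reads per gene symbol, as whole numbers without normalization, 1 table for each of 8 libraries. The submitters' processing notes name Bowtie2, edgeR and the build mm10, without versions or settings. Identical libraries were counted once, which left 6. The count test was edgeR 4.0.16 in R 4.3.3, after filterByExpr (12701 of 23282 rows kept) and TMM, as 1 quasi-likelihood fit of all 3 groups without covariates (common biological coefficient of variation 0.239). P-values were adjusted by Benjamini-Hochberg over all genes tested at 0.05, and the SE was taken from the F statistic. CPM are TMM-normalized. A row was out of order where its gene lay more than 2 Mb from its ordered neighbours on GRCm38. Sequences came from RefSeq (GRCm38.p6) and positions from RefSeq and GENCODE M21. The members and lists were chosen with earlier results of these data known. All members were named, and list genes were named for the largest changes of their list or a stated role. *Il18*, *Cxcl10* and *Cxcl11* were left out of their lists because no row was matched to their place. A further gene of the pathway lists is not reported here, and *Ly6g* and *Trac* of the marker lists were not analysed here. On simulated data with 200 of 12701 genes changed 4-fold, edgeR called 86.5% of them and 3.35% of calls were false. The simulation gave every gene the same spread and changed only the endotoxemic libraries, so these rates do not describe the LGK974 comparisons. Alternatives were other size factors, DESeq2 1.42.0, limma 3.58.1 (voom), other filters, all 8 libraries, a replicate block, only the 2 groups compared, reassigned or omitted rows, and each library left out. Near-identical rows summed and the whole row at the place of *Gbp5* were added after seeing the data.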

Additional observations from a re-analysis of the deposited data

How the results depend on the processing

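Under the alternatives with 2 or more libraries in each group, all 9 GTPases on rows in order were called higher in the endotoxemic group. Over all genes 2134 to 3708 were called higher under these settings, against 2595 of 12701. *Gbp5* was a further call in 2 ways, lower as deposited with all 8 libraries (log2 −1.77) and higher as reassigned (log2 6.69). The rise of the 9 GTPases kept its direction in all 146 values under the alternatives. The fall for LGK974-treated against endotoxemic liver kept its direction in the same number of values, but the count of 5 called members was 9 without a filter on low counts, 3 with only the 2 groups compared, and 0 to 9 with 1 library left out. Over all genes the lower calls, 358 of 12701, became 824 of 17263, 162 of 11925 and 26 to 1067 under the same settings. The cause was not tested, and a group left with 1 library was assumed to vary like the others. With LGK974 compared with control, 8 members were called, *Gbp5* as deposited being the 1 lower, and 5 to 10 were called with 1 library left out, where all genes had 1041 to 2608 higher and 1331 to 2761 lower calls, against 2081 and 2247. *Gbp5* changed direction with its row. As reassigned, its log2 fold changes were 6.69 (endotoxemic against control) and 3.79 (LGK974 against control), and 5.89 and 2.99 with the whole row at its genomic place. *Iigp1* had, for LGK974-treated against endotoxemic liver, an edgeR adjusted p of 0.0473 with a replicate block (log2 −1.54) and 0.0207 with all 8 libraries, and an adjusted p of 0.00282 by DESeq2. *Irgm1* compared with control did not pass by DESeq2 (adjusted p = 0.074) or limma-voom (adjusted p = 0.133), while *Igtp* passed in that comparison by DESeq2 (adjusted p = 0.0161) and, with genes of low counts kept, by edgeR (adjusted p = 3.46e-06). Same-numbered libraries had correlations of 0.14, −0.007 and 0.061, so that the numbers were not taken as pairs. With the replicate block 9, 6 and 8 members were called in the 3 comparisons, and the LGK974 comparison with endotoxemic liver had 330 higher and 355 lower genes, against 356 and 358 without it. Over all genes, DESeq2 called 549 higher and 569 lower in that comparison, and 1711 and 1548 were called when the identical libraries were counted as separate. Levels below 3 counts, 0.197 to 0.328 CPM, could not be shown at this depth.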
